A study of Homo sapiens with 6 samples.

Results

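The 9 genes described here belong to the MYC, MAX and MXD network of transcription factors: MYC, MYCN, MAX, MXD1, MXD3, MXD4, MNT, MGA and MLX. They were taken by name from the annotation of the array, and each was measured by 1 probe set, so that 9 of 32319 probe sets, or 9 of 18404 named genes, are considered. RNA came from cultures of SNU-398, a long-established line of human liver cancer (hepatocellular carcinoma) cells. It was hybridized to 6 Affymetrix arrays in 2 groups of 3: the control cultures carried a scrambled short hairpin RNA (shRNA), and the knockdown cultures a SALL4 shRNA. SALL4 encodes a zinc finger protein of stem cells and the fetal liver that regulates transcription. Replicates are called biological in the labels, but nothing says whether the cultures were transduced separately, so p-values measure the spread between these cultures. The labels give no hairpin sequence, no time after treatment and no rescue, so that effects of the hairpin outside SALL4 and effects of reduced SALL4 cannot be told apart.

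The proteins of this network share a basic helix-loop-helix leucine zipper, with which they pair and then bind the E-box, a short DNA motif. MAX is the common partner: with MYC or MYCN it activates genes of growth, ribosome production and division, whereas with the MXD proteins, MNT or MGA it represses, the MXD proteins and MNT through the SIN3 histone deacetylase corepressor. MLX is a second centre, which pairs with MNT and some MXD proteins and with the glucose-sensing factors MLXIP and MLXIPL. MXD genes are known to be switched on as cells leave the cycle and differentiate, and MYC is a recurrent oncogene of liver cancer.

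None of the 9 genes passed the test for a difference between the groups, which was limma with Benjamini-Hochberg adjustment over 13711 genes and a threshold of 0.05. MXD1, a repressor, came nearest, at 1.73-fold the scrambled level with an adjusted p of 0.0572. The probe sets of MXD1, MXD3, MNT and MLX were brighter in every SALL4 shRNA array than in any scrambled array, and that of MYCN was dimmer. MYC was lower on average, with overlapping groups. Over all genes 220 of 13711 passed, or 1.6% (0.547% higher and 1.06% lower in the knockdown), against 0 of 9 members. With no filter on dim genes 0 of 18404 passed (0%), members included. At an unadjusted p under 0.05 there were 16.9% of all genes and 2 of 9 members, MXD1 and MXD3. Groups did not overlap in 22.4% of all genes and in 5 of 9 members. They did not overlap with the higher values in the knockdown in 11.4% of all genes and in 4 members, and with the lower values there in 11% and in 1 member. The members' median log2 change was 0.18, beside 0.02 for all genes. On simulated arrays of this design, the same fit recovered 49% of genes shifted by 1 on the log2 scale and 94% of those shifted by 2. Smaller shifts were not simulated. Only brighter genes were shifted, so these rates do not cover dim members such as MYCN and MXD4.

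Values below are array intensities on a linear scale with a floor at 10, means carry the standard deviation (SD) over 3 arrays, and changes are log2 differences, SALL4 shRNA minus scrambled, with the standard error (SE) of the fit. SALL4 itself had an intensity of 283, 264 and 335 in scrambled replicates 1, 2 and 3, and of 121, 119 and 117 in the SALL4 shRNA replicates. The groups lay far apart, and SALL4 fell by 1.30 on the log2 scale (SE 0.18, limma adjusted p 0.0112, and 0.0946 when all 18404 genes were fitted with no filter on dim ones; 0.0737 without scrambled replicate 3 and SALL4 shRNA replicate 2 together). Array medians lay between 47.85 and 51.69. Among liver markers, albumin (ALB) was near the floor, from 10.1 to 12.8 over the 6 arrays, as was the fetal liver protein gene AFP (10.6 to 17.8), while the oncofetal proteoglycan gene GPC3 was at 119 to 165. In limma 0 of the 6 liver markers fitted passed (0 at an unadjusted p under 0.05), as did 0 of 3 epithelial (1), 0 of 4 cholangiocyte (1), and 0 of 1 blood (0) markers; no endothelial marker was bright enough to be fitted, and PTPRC and LYZ of blood cells were at the floor on all 6 arrays. Of 8 fibroblast and stellate markers DCN (-1.25 ± 0.21, SE) and ACTA2 (-1.02 ± 0.18) fell, and 6 did not pass. The 8 did not move together, since 5 changes were negative and 3 positive. At an unadjusted limma p under 0.05 there were 3 lower and 1 higher, beside 8.92% and 8% of all genes. The higher one was COL1A2 (0.50 ± 0.20). The summed intensity of those 8 was 1770 to 1886 in scrambled arrays and 1280.2 to 1623 in SALL4 shRNA arrays, and their part in the results below was not tested. On the second principal component scrambled replicate 3 and SALL4 shRNA replicate 2 stood apart from the other arrays, and results that rest on them are given without them too.

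The E-box CACGTG, which reads alike on both strands, was looked for in RefSeq promoters of assembly GRCh38.p14, from 250 bases before to 50 bases after each gene's start. It was found in 7.26% of 35116 promoters. Of the 8 members with an entry, 3 had it: MXD4, MNT and MLX. Counted by promoter, as for all genes, it was in 3 of the members' 11 entries (27.3%). MYC had no entry. The 250 bases before the start are shown for MXD1, which had the largest difference, and for MNT and MLX, whose pattern over the arrays was close to it, since this is the motif that the network's own dimers read; capitals mark it. The MXD1 promoter lies on the plus strand at chr2:69914859-69915108, that of MNT on the minus strand at chr17:2401061-2401310 and that of MLX on the plus strand at chr17:42566850-42567099. All are written 5′ to 3′ in the direction of the gene.
MXD1: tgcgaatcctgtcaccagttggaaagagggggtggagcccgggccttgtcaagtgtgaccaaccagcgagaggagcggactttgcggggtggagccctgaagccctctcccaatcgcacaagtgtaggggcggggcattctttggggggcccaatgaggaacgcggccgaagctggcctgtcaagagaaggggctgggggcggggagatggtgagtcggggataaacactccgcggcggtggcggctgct
MNT: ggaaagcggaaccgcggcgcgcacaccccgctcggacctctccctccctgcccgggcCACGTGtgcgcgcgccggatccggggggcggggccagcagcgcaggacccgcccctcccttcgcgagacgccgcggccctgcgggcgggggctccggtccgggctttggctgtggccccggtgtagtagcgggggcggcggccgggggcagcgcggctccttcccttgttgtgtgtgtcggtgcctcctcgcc
MLX: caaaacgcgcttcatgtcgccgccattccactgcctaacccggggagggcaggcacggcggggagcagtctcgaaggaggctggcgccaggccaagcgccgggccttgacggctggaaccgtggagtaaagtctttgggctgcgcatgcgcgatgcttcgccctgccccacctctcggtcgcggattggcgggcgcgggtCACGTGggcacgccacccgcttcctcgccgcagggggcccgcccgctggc
The motif starts 193 bases before the start of MNT and 50 bases before that of MLX, and these letters are not in the window of MXD1. A match of letters is a description and was not tested as a binding site; binding was not measured here.

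Both activating members had lower means with the SALL4 shRNA, and neither passed. MYC, the general activator of growth genes (probe set 8148317), was at 575, 496 and 623 in the scrambled arrays and at 282, 455 and 498 in the SALL4 shRNA arrays. SALL4 shRNA replicate 1 was far below the rest, and replicate 3 lay just above the lowest scrambled array, so the groups overlapped. The means were 564 ± 64.2 and 411 ± 114 (SD, n = 3 in each group), and the log2 difference was -0.49 ± 0.23 (SE; limma adjusted p 0.313). The difference leaned on 1 array: without SALL4 shRNA replicate 1 it was -0.24 (limma adjusted p 0.631). In bulk RNA, less MYC RNA per cell and fewer cells with MYC RNA cannot be told apart, which holds for each gene here.

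MYCN, the MYC paralog of neural and embryonic tissue (probe set 8040419), was dim. It was at 63.8, 58.5 and 66.6 in the scrambled arrays and at 53.0, 38.9 and 56.5 in the SALL4 shRNA arrays. Each SALL4 shRNA value was below each scrambled one, replicate 2 by the widest margin. The log2 difference was -0.37 ± 0.20 (SE; limma adjusted p 0.383). An exact permutation test (two-sided) gave p = 0.1, below which a design of 3 and 3 arrays cannot go. It was -0.20 without SALL4 shRNA replicate 2 (adjusted p 0.682), and -0.16 when scrambled replicate 3 was left out as well (0.786).

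MAX, the obligate partner (probe set 7979671), showed mixed arrays. It was at 239, 299 and 284 with the scrambled shRNA and at 252, 310.3 and 343 with the SALL4 shRNA. The ranges overlapped, and the log2 difference was 0.14 ± 0.20 (SE; 95% interval -0.29 to 0.56; limma adjusted p 0.78). An interval of this width holds both a modest decrease and a rise of up to 0.56, so it does not show that MAX was equal in the groups. With 1 array left out it ranged from 0.04 to 0.26.

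**Figure D1:**
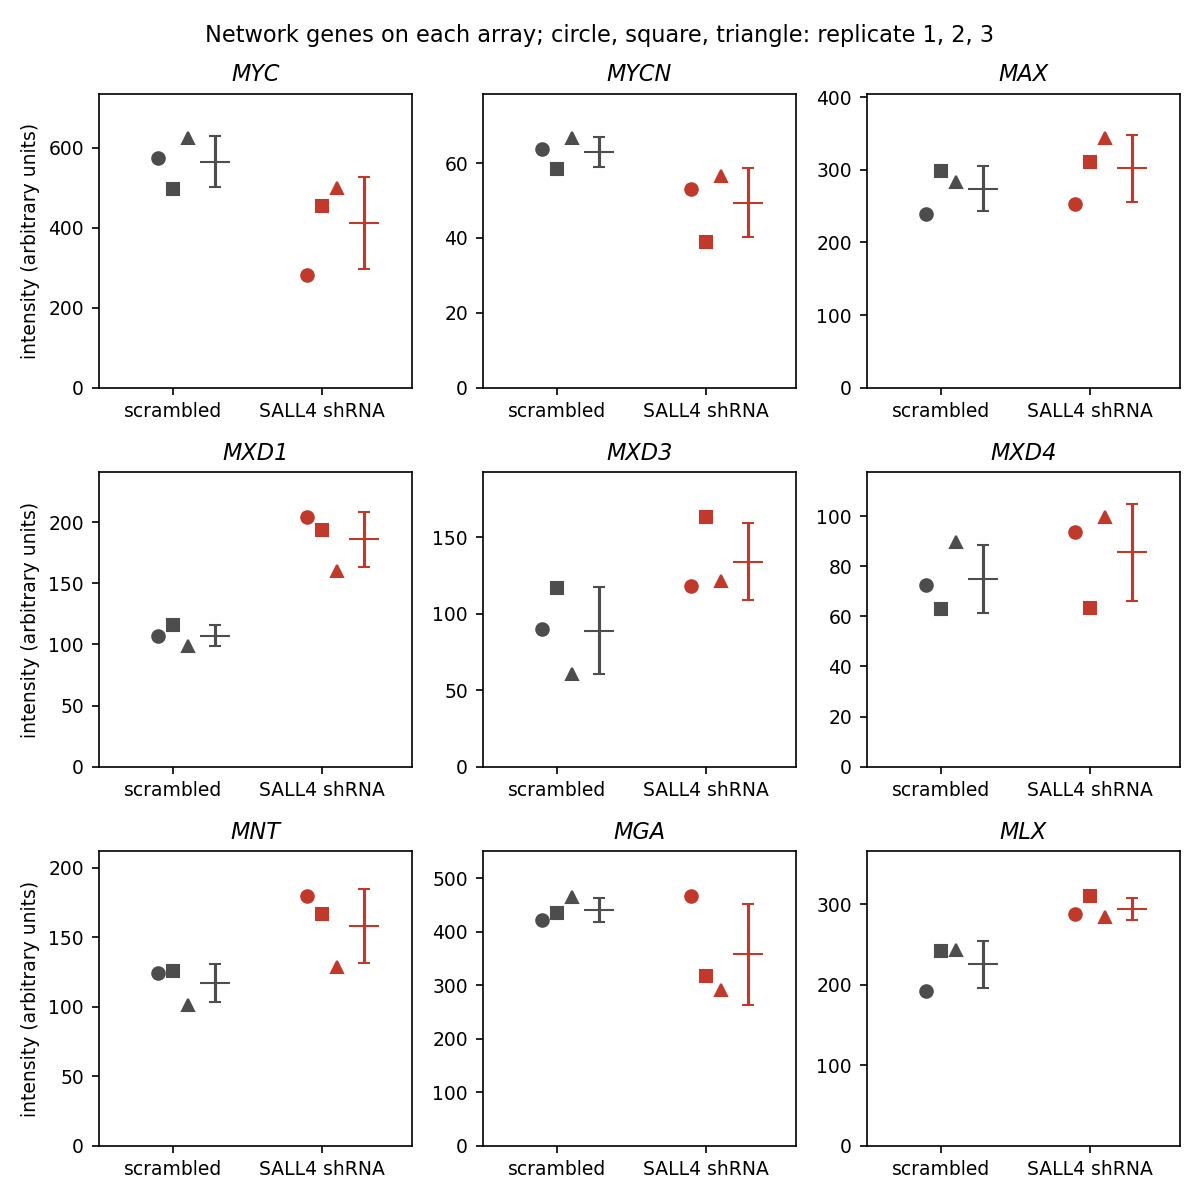
Intensity (arbitrary units, linear axis from 0) of the 9 network genes on each array, 1 panel a gene, scrambled in grey and SALL4 shRNA in red. Circles, squares and triangles are replicates 1, 2 and 3, and bars give the mean ± SD of 3 arrays; MXD1, MXD3, MNT and MLX have all red points above all grey ones, and MYC, MAX, MXD4 and MGA overlap.

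The MXD repressors, which compete with MYC for MAX, had unequal values, and none passed. MXD1 (also known as MAD1; probe set 8042503) was at 107, 116 and 98.9 in the scrambled arrays and at 204, 193 and 160.0 in the SALL4 shRNA arrays. The scrambled arrays were tight and each SALL4 shRNA array was well above them. The means were 107 ± 8.46 and 186 ± 22.9 (SD, n = 3 in each group), and the log2 difference was 0.79 ± 0.19 (SE; 95% interval 0.38 to 1.19). By unadjusted limma p MXD1 ranked 279 of 13711 genes, of which the first 220 passed; its adjusted p was 0.0572 and its exact permutation p 0.1. The adjusted p was below 0.05 in 4 of 17 alternative analyses: 0.0397 with a stricter filter on dim genes, 0.0432 with a trended and robust spread, 0.0461 with arrays centred on their medians and 0.0374 with 16 added before the logarithm. In the other direction, the limma adjusted p was 0.113 with no filter on dim genes and 0.1075 with the replicate number as a block. With any 1 array left out it was between 0.0787 and 0.147, while the difference stayed between 0.72 and 0.89. Without scrambled replicate 3 and SALL4 shRNA replicate 2 together it was 0.70 (limma adjusted p 0.214).

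MXD3, an MXD protein linked to cycling cells (probe set 8116012), was at 89.8, 117 and 60.3 in the scrambled arrays and at 118, 163 and 121 in the SALL4 shRNA arrays. The groups touched without overlapping: scrambled replicate 2 was almost as bright as SALL4 shRNA replicate 1, and scrambled replicate 3 was the dimmest by far. The log2 difference was 0.63 ± 0.25 (SE), with an unadjusted limma p of 0.0273 and an adjusted p of 0.229. It was 0.37 without scrambled replicate 3 (limma adjusted p 0.488) and 0.22 without that array and SALL4 shRNA replicate 2 together (0.704).

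MXD4, which is known from resting and differentiated cells (probe set 8098995), was at 72.4, 63.0 and 89.8 in the scrambled arrays and at 93.9, 63.4 and 99.5 in the SALL4 shRNA arrays. SALL4 shRNA replicate 2 fell among the scrambled values and the other two lay just above them. The log2 difference was 0.18 ± 0.23 (SE; limma adjusted p 0.743). With 1 array left out it ranged from 0.06 (without SALL4 shRNA replicate 3, and likewise without scrambled replicate 2) to 0.38 (without SALL4 shRNA replicate 2), and it was 0.10 without SALL4 shRNA replicate 1 and 0.31 without scrambled replicate 3. Without scrambled replicate 3 and SALL4 shRNA replicate 2 together it was 0.52 (limma adjusted p 0.324).

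MNT, the broadly expressed repressor that pairs with MAX or MLX (probe set 8011262), was at 124, 126 and 101 in the scrambled arrays and at 179, 167 and 128 in the SALL4 shRNA arrays. All SALL4 shRNA arrays were higher, replicate 3 by a narrow margin. The means were 117 ± 13.9 and 158 ± 26.6 (SD, n = 3 in each group), and the log2 difference was 0.43 ± 0.20 (SE; 95% interval -0.01 to 0.86; limma adjusted p 0.31). Without scrambled replicate 3 and SALL4 shRNA replicate 2 together it was 0.28 (limma adjusted p 0.642).

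MGA, a very large protein that joins a T-box to the helix-loop-helix domain and recruits the Polycomb-like PRC1.6 complex (probe set 7982957), was at 422, 436 and 466 in the scrambled arrays and at 466, 317 and 290.9 in the SALL4 shRNA arrays. SALL4 shRNA replicate 1 was as high as the highest scrambled array and the other two were below all of them. The log2 difference was -0.33 ± 0.21 (SE; limma adjusted p 0.46), and with 1 array left out it ranged from -0.54 (without SALL4 shRNA replicate 1; adjusted p 0.23) to -0.20 (without replicate 3; 0.739). Without scrambled replicate 3 and SALL4 shRNA replicate 2 together it was -0.22 (0.753).

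MLX, the centre of the glucose-sensing branch (probe set 8007290), was at 192, 242 and 243 in the scrambled arrays and at 288, 309.8 and 284 in the SALL4 shRNA arrays. The SALL4 shRNA arrays were tight and all higher. The means were 226 ± 29.3 and 294 ± 13.8 (SD, n = 3 in each group), and the log2 difference was 0.39 ± 0.19 (SE; limma adjusted p 0.315). The difference was 0.28 without scrambled replicate 1, the dimmest array (limma adjusted p 0.606). It was 0.45 without scrambled replicate 3 (limma adjusted p 0.355), the highest value with 1 array left out.

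Set side by side on each array, MYC and MYCN leaned one way and the repressors went both ways. MYC and MYCN were both below their scrambled means on each of the 3 SALL4 shRNA arrays. Of the 5 repressors MXD1, MXD3, MXD4, MNT and MGA, 5, 3 and 4 were above theirs on SALL4 shRNA replicates 1, 2 and 3. MGA was below its scrambled mean on replicates 2 and 3 (-0.47 and -0.60), as was MXD4 on replicate 2. MXI1, a further MXD-type repressor outside the 9, was below its scrambled mean on all 3 (-0.50, -0.49 and -0.20). Among scrambled arrays the same counts ran from 0 to 2 for the activators and from 2 to 3 for the 5 repressors. For each gene the scrambled deviations sum to 0 by construction, so these counts are no baseline for those of the SALL4 shRNA arrays. The shares of all genes above and below their scrambled means were not counted. Taking MXD1 minus MYC, each relative to its own scrambled mean, the log2 values were -0.03, 0.30 and -0.26 in scrambled replicates 1, 2 and 3 and 1.92, 1.16 and 0.76 in the SALL4 shRNA replicates. The pair thus lay apart in all SALL4 shRNA arrays, most in replicate 1, where MYC was lowest and MXD1 highest. These are descriptions of genes picked with the results known, and no p is given for them.

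**Figure D2:**
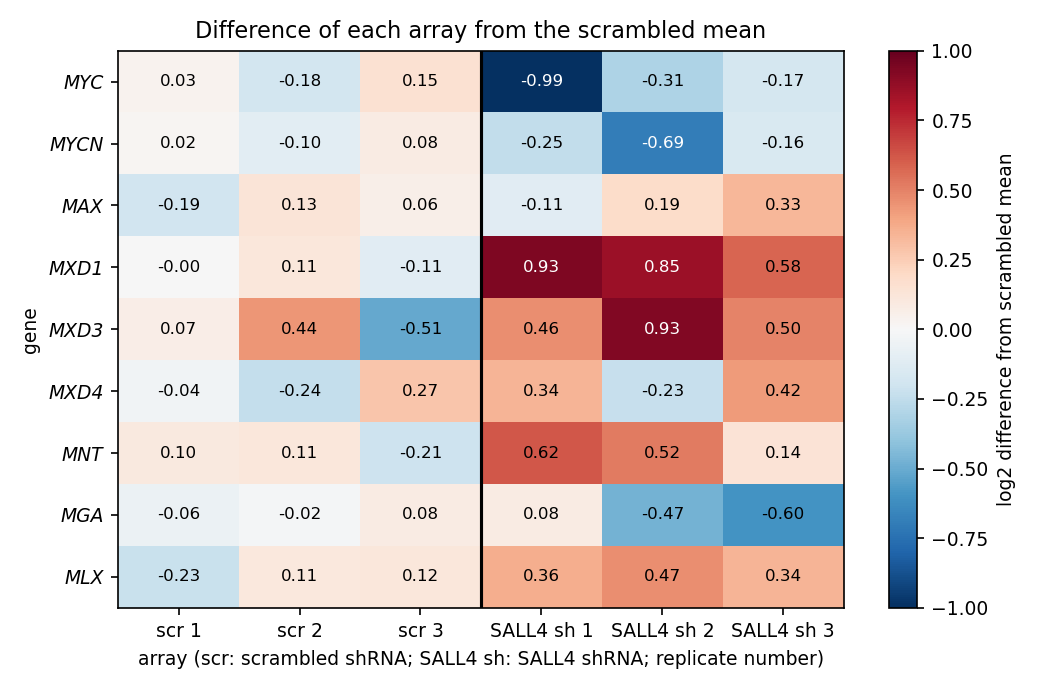
Log2 difference of each array (columns; scrambled left of the line, SALL4 shRNA right) from the scrambled mean of the same gene (rows), from blue (lower) to red (higher). MXD1 is at 0.93, 0.85 and 0.58 in the SALL4 shRNA arrays, while MYC is at -0.99, -0.31 and -0.17 there.

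Patterns were compared between genes by the root mean square difference of their mean-centred log2 values over the 6 arrays. Of the 36 pairs of members, MAX and MLX were the closest (0.19), followed by MXD1 and MNT (0.19) and by MNT and MLX (0.23). MYC and MXD1, the members with the lowest and the highest log2 change, were the farthest apart (0.74). The measure keeps the size of the group difference, so this distance largely restates those changes. Pairs of other genes were not set beside these. The 3 genes of 13711 nearest to MYC were NDUFB4, a complex I subunit gene (0.08), THUMPD3 (0.11) and the zinc finger gene ZNF282 (0.11). Like MYC, none of them passed, with log2 differences of -0.40, -0.56 and -0.49. Without SALL4 shRNA replicate 1 these were -0.12, -0.39 and -0.28. With 6 arrays and so many genes some will lie close to any pattern.

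The 4 further genes of the network were measured too, and 0 of 4 passed. MXI1, another MXD-type repressor, was at 198 ± 26.7 and 150 ± 18.4 (SD, n = 3 in each group), and the log2 difference was -0.40 ± 0.19 (SE; limma adjusted p 0.324). Its sign was opposite to that of MXD1. MYCL, the third MYC paralog, was at -0.41 ± 0.22, the same sign as MYC and MYCN, and at -0.63 to -0.25 with 1 array left out. The MLX partners MLXIP (0.12 ± 0.21) and MLXIPL (-0.01 ± 0.18), named after their values were seen, lay near 0.

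**Figure D3:**
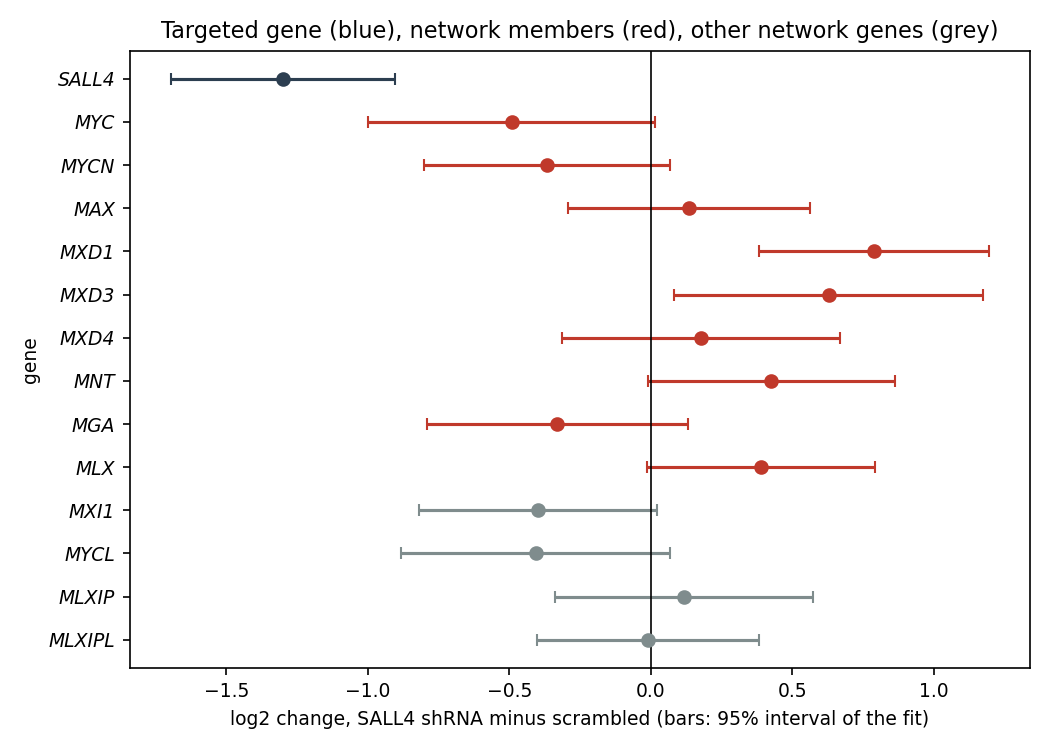
Log2 change (x axis, SALL4 shRNA minus scrambled) of SALL4, the 9 members and the 4 further network genes, with the 95% interval of the limma fit, unadjusted for the number of genes. The intervals of SALL4, MXD1 and MXD3 leave out 0, and those of the other 11 genes cross it.

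Genes that MYC is known to activate passed about as often as all genes did. Of 75 genes listed, 64 were fitted: 1 fell, 0 rose and 63 did not pass, beside 1.6% of all genes that passed. The gene that fell was cyclin D2. CCND2, the cyclin that drives CDK4 and CDK6 in G1, was at 1815, 1565 and 2153 in the scrambled arrays and at 880, 894 and 555 in the SALL4 shRNA arrays. Its highest SALL4 shRNA value was far below its lowest scrambled value. It fell by 1.27 ± 0.23 on the log2 scale (SE; limma adjusted p 0.0241), but the adjusted p was 0.132 in the unfiltered fit, and the call was lost without scrambled replicate 1, 2 or 3 or SALL4 shRNA replicate 3 (0.059 to 0.0764). Without scrambled replicate 3 and SALL4 shRNA replicate 2 together the adjusted p was 0.0938. Over the list 40 changes were negative and 24 positive, that is 62.5% negative beside 48% of all genes, with a median of -0.06 beside 0.02. At an unadjusted p under 0.05 there were 12 lower and 2 higher targets, while the same threshold was met by 8.92% of all genes on the lower side and by 8% on the higher side. The groups did not overlap in 17 targets on the lower side and in 2 on the higher side, beside 11% and 11.4% of all genes.

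Genes that MYC is known to repress did not pass. Of 10 such genes 0 passed, 8 had a positive and 2 a negative change, that is 20% negative beside 48% of all genes, and the median was 0.19 beside 0.02. At an unadjusted p under 0.05 there was 1, on the higher side. The groups did not overlap in 3 on the higher side and in 0 on the lower side, beside 11.4% and 11% of all genes. The 2 negative changes were those of THBS1 (-0.33 ± 0.19, SE) and GAS1 (-0.25 ± 0.19). The collagen gene COL1A2 was at 0.50 ± 0.20 (SE) and the CDK inhibitor gene CDKN1A at 0.38 ± 0.19; COL1A2 and PDGFRB of this list are fibroblast markers as well. Of 9 fitted genes driven by MLX with its partners 0 passed, with a median of 0.02. At an unadjusted limma p under 0.05 there were 2 higher and 2 lower, beside 8% and 8.92% of all genes. The 2 lower were ACLY (-0.40 ± 0.18, SE) and the dim ARRDC4 (-0.48 ± 0.22), and the 2 higher were KLF10 and ELOVL6. ARRDC4 reached the filter only through the scrambled arrays, where it was higher, so its count as lower is no support for a decrease. A filter on the mean over all 6 arrays kept 8 genes of this list and left ARRDC4 out. KLF10, a zinc finger repressor, was at 719 ± 41.0 and 1111 ± 95.3 (SD, n = 3 in each group), and the log2 difference was 0.62 ± 0.18 (limma adjusted p 0.0981). The fatty acid elongase gene ELOVL6 was at 0.58 ± 0.24.

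Among the coactivators that MYC recruits, RUVBL1 passed. RUVBL1, an ATPase of the TIP60 and INO80 chromatin complexes, was at 387, 406 and 420 in the scrambled arrays and at 227, 162 and 113 in the SALL4 shRNA arrays. The groups were far apart, and it fell by 1.33 ± 0.24 on the log2 scale (SE; limma adjusted p 0.0241). The adjusted p was 0.136 in the unfiltered fit, and with 1 array left out the call held only without SALL4 shRNA replicate 1 (0.0216; 0.0599 to 0.0815 for the other 5). Without scrambled replicate 3 and SALL4 shRNA replicate 2 together it was 0.119. The other 15 of 16 fitted coactivators did not pass, so that 1 of 16 passed beside 1.6% of all genes, and the list's median was 0.06. At an unadjusted limma p under 0.05 there were 3 higher and 1 lower, beside 8% and 8.92% of all genes. The higher ones were KAT2A (0.55 ± 0.20, SE), PAF1 (0.53 ± 0.18) and KAT5 (0.47 ± 0.19), and the lower one was RUVBL1.

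The corepressors of the MXD proteins, MNT and MGA were measured as well. Of 14 fitted genes of the SIN3-HDAC corepressor 0 passed, 7 had a negative and 7 a positive change, and the median was 0.01. By unadjusted limma p under 0.05, 1 was higher (ARID4B) and 2 were lower (HDAC1 and RBBP4), beside 8% and 8.92% of all genes. The list holds the deacetylase genes HDAC1 and HDAC2, whose changes had opposite signs. HDAC1 changed by -0.77 ± 0.19 (SE; limma adjusted p 0.0642) and HDAC2 by 0.30 ± 0.19 (adjusted p 0.452). HDAC1 passed in 3 of the 17 alternatives, and in 0 of the 6 fits with 1 array left out. ARID4B, a SIN3 complex subunit gene, was at 0.52 ± 0.18 (adjusted p 0.171). Of 11 fitted genes of the PRC1.6 complex 0 passed, with a median of 0.04 and single values from -0.31 to 0.32; CBX1 and YAF2 were at 0.32 ± 0.20 and 0.31 ± 0.19.

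Regulators of MYC itself did not pass. Of 16 fitted genes that control MYC protein stability 0 passed and 4 were lower at an unadjusted limma p under 0.05, with 1 higher, beside 8.92% and 8% of all genes. SKP2, a ubiquitin ligase subunit that both degrades and assists MYC, was at 584 ± 55.7 and 350.2 ± 61.6 (SD, n = 3 each; log2 difference -0.75 ± 0.20, SE; limma adjusted p 0.0784). FBXW7, the ligase subunit that recognises phosphorylated MYC, was at -0.72 ± 0.28. Of 17 regulators of MYC transcription and RNA 0 passed, with 2 higher and 0 lower at an unadjusted p under 0.05, beside 8% and 8.92% of all genes. STAT3, a cytokine-activated factor, was at 320 ± 15.8 and 526 ± 106 (0.70 ± 0.20; limma adjusted p 0.0947), and TCF7L2, a Wnt pathway factor, at 0.43 ± 0.19.

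**Figure D4:**
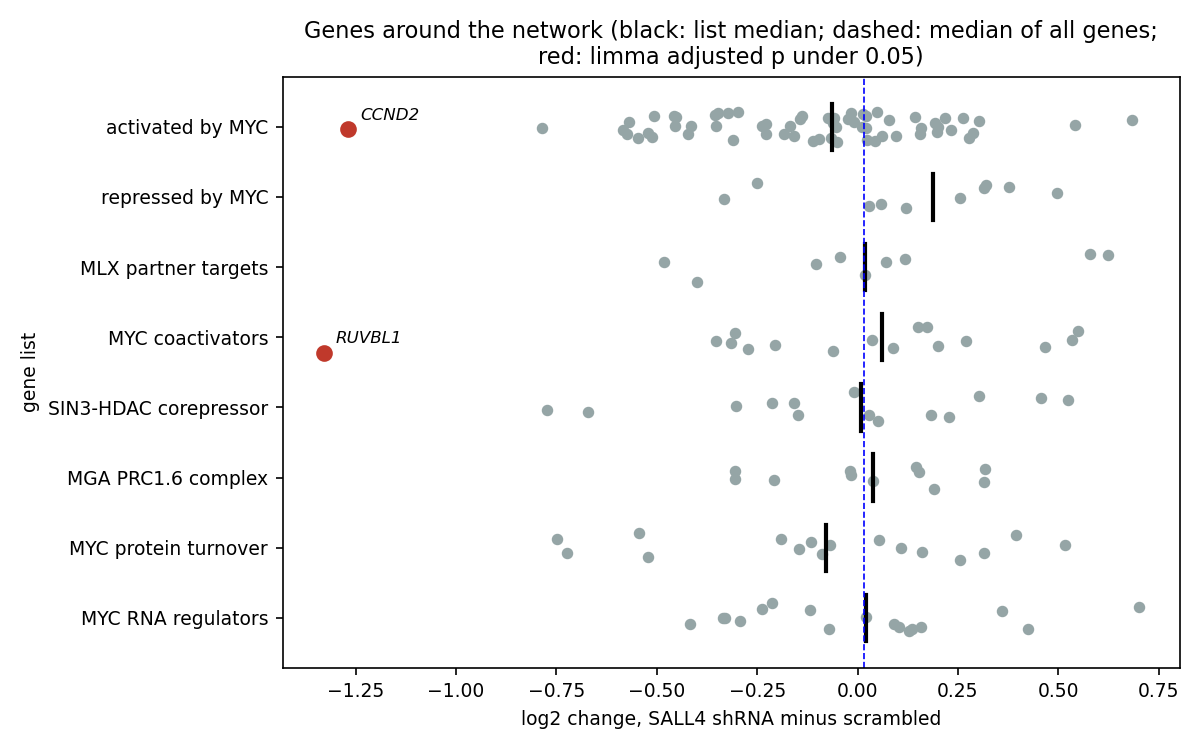
Log2 change (x axis) of each fitted gene in 8 lists around the network (rows), with the list median as a black bar and the median of all genes as a dashed line. Red points passed the limma test; these are CCND2 and RUVBL1, at -1.27 and -1.33, and the other points lie between -0.79 and 0.70.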

How the data were processed

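Probe-set intensities were deposited by the authors for 32319 probe sets on a linear scale, never below 10; the submitters' processing notes name RMA, whose version and later steps are not known here. Deposited intensities were converted to log2 for the tests. Of the probe sets, 19158 have 1 gene symbol, 1388 several and 11773 are unnamed here. Symbols were updated through Entrez identifiers (19128 matched), and the brightest probe set by mean was kept for each of 18404 genes; each member has 1. No coordinates of probe sets are given, since the annotation names no build. Groups were compared with limma 3.58.1 in R 4.3.3 (lmFit, eBayes, two-sided, Benjamini-Hochberg) over the 13711 genes whose mean log2 value reached 5 in 1 group or both. All 9 members were also kept by a filter on the mean over all 6 arrays. The fit was tested on simulated data with 200 changed genes; 4 of 147 calls were false. Members, 9 pathway lists, filter and tests were chosen with earlier results of these data known. The genes named are the members, SALL4, list genes that passed (or the 2 with the lowest p) and the 3 genes most like MYC. A few other list genes were named after their values were seen, some to show changes of the other sign. Genes listed but not fitted have no probe set with 1 symbol here or were too dim. The 17 alternatives are given at the end. The number of arrays limits the precision.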

Additional observations from a re-analysis of the deposited data

How the results depend on the processing

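Under 17 alternatives each of the 9 members kept its sign (16 for MYCN, which a stricter filter removed), and no member other than MXD1 passed the threshold in any. The count of members that passed was 1, MXD1, with the stricter filter (mean log2 of at least 6), with trended and robust eBayes, with median centring and with 16 added before the logarithm; in the other 13 it was 0. The count of all genes was 220; it was 0 of 18404 with no filter (2864 at an unadjusted limma p under 0.05), 363 with the stricter filter, 500 with trended and robust eBayes, 445 with 16 added, 10 of 20316 when all probe sets were fitted, 39 to 103 with 1 array left out and 15 without scrambled replicate 3 and SALL4 shRNA replicate 2 together. SALL4 kept a negative change throughout (-1.37 to -1.20 with 1 array left out) but missed the threshold with no filter (-1.30, adjusted p 0.0946), with all probe sets (-1.30, 0.0535) and without those 2 arrays together (-1.20, 0.0737). With fewer arrays the fit has fewer degrees of freedom; the cause of the other shifts was not tested. With the replicate number as a block 41 genes passed, and CCND2 (0.0659) and RUVBL1 (0.0567) did not. Deviations of same-numbered arrays correlated at 0.003, -0.08 and -0.04 over 13711 genes, and no array correlated best with its own number. Deviations from a group mean sum to 0 within each group, so these correlations are not independent of each other. The labels do not say whether same-numbered cultures were handled together, and this was not tested. Lists with 0 or 1 gene passing stayed between 0 and 2.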
